A study of Mus musculus with 5 samples.

Results

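Among 1231222 bins of 2000 bp on mouse chromosomes 1 to 19, 314 carried both trimethylated lysine 27 of histone H3 (H3K27me3) and RNA polymerase II (RNA Pol II). They are called shared bins here, they cover 628 kb in all, and they were chosen by read counts in sequencing of immunoprecipitated chromatin (ChIP-seq). A shared bin had at least 20 H3K27me3 reads at a fold of at least 3 over whole cell extract (WCE), and held at least 1 bin of 500 bp with at least 10 RNA Pol II reads at a fold of at least 3. Fold is the share of a library's autosomal reads in the bin divided by the share of the WCE reads there, with 1 read added to each count. The H3K27me3, RNA Pol II and WCE values of these bins are therefore a description of the choice, also where they are split over the inside of a bin. The E2F4 reads were not used by it.

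The cells were secondary mouse embryonic fibroblasts with doxycycline-inducible Klf4, Sox2 and Oct4 and a selectable Oct4 cassette; no addition of doxycycline is given in the labels. They came from chimeras made by injecting inducible pluripotent cells into BDF2 blastocysts. Embryos were 13.5 days post coitum when dissected, and 48 hours of puromycin (2 µg/ml) kept cells descended from the injected ones. Serum was given as 10% for all libraries. The libraries were 1 for E2F4, 1 for H3K27me3, 1 for RNA Pol II with antibody 8WG16, and 2 of WCE without antibody. Embryonic fibroblasts are a mixture of cells from several tissues, and whether both signals lay on the same chromosome of the same cell was not measured. Each antibody has 1 library, so no spread between replicates could be measured and no test was made. Intervals in parentheses are exact at 95% and cover counting error only.

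H3K27me3 is laid down by Polycomb repressive complex 2, whose catalytic subunits are EZH1 and EZH2, and it typically covers silent promoters and clusters of developmental regulators. Antibody 8WG16 binds the repeats at the C-terminal end of the enzyme's largest subunit, and RNA Pol II is usually densest near transcription starts. In stem cells, promoters with H3K27me3 can also carry the active mark H3K4me3 and some RNA Pol II, a state called bivalent or poised. E2F4 binds promoters of cell cycle genes together with pocket proteins of the retinoblastoma family and is abundant in quiescent cells.

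The part of the rule on H3K27me3 was met by 27321 bins, 2.22% of all bins, and the part on RNA Pol II by 18485, 1.5%, holding such bins of 500 bp, which were 0.669% of all bins of that size. Both were met by the 314 shared bins, 0.0255% of all bins, which is 1.15% of the bins with H3K27me3 and 1.70% of those with RNA Pol II. The remaining 27007 bins with H3K27me3 only and 18171 with RNA Pol II only serve for comparison. The count depended on the background: it was 200 against WCE replicate 1 alone, 115 of them among the 314, and 4012 against a uniform background. It was 577 at a fold of at least 2, 188 at a fold of at least 4, 715 with scaling on background bins and 150 with the antibody libraries thinned to the E2F4 depth.

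The shared bins were rich in H3K27me3 reads and moderate in RNA Pol II reads. Their H3K27me3 counts ran from 22 to 490 per 2 kb with a median of 101, against a median of 42 in bins with H3K27me3 only. The median H3K27me3 fold was 4.46 (quartiles 3.58 and 6.12) in shared bins, against 4.15 (3.45 and 5.50) in bins with H3K27me3 only. In the 500-bp bin with the most RNA Pol II reads, shared bins held 10 to 207 reads with a median of 21.5, against a median of 52 in bins with RNA Pol II only. The median WCE count was 26 reads in shared bins, against 12 in bins with H3K27me3 only and 40 in bins with RNA Pol II only. WCE replicate 1, the shallow library, had 0 reads in 254 of the shared bins, so WCE replicate 2 supplied nearly all of the background there.

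Summed over the shared bins, H3K27me3 stood at 5.21 times WCE (5.09 to 5.33) and RNA Pol II at 6.69 times (6.52 to 6.87). The 36881 H3K27me3 reads were split evenly by strand, at 49.9% on the plus strand (49.4 to 50.4), as were the 15544 RNA Pol II reads, at 49.8% (48.98 to 50.6). Reads that repeated a position made up 13.6% of the H3K27me3 reads and 6.40% of the RNA Pol II reads in these bins before repeats were removed. The same shares over all autosomes were 10.7% and 10.4%.

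**Figure D1:**
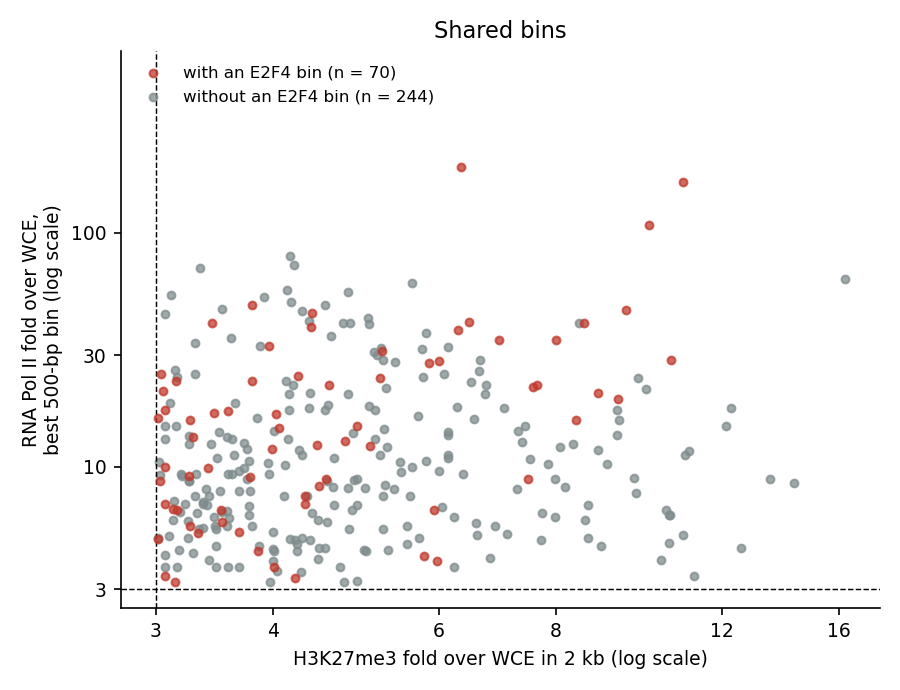
Each point is 1 of the 314 shared bins, with the H3K27me3 fold over WCE in 2 kb on the x axis and the RNA Pol II fold in the best 500-bp bin on the y axis, both on log scales; dashed lines mark the thresholds of 3, and red points are the 70 bins with an E2F4 bin (at least 10 E2F4 reads in 500 bp at a fold of at least 3). The median is 4.46 for H3K27me3 and 9.94 for RNA Pol II, and many bins lie close to the H3K27me3 threshold, 116 of them at a fold under 4.

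Many bins sat near the H3K27me3 threshold. A fold under 4 was held by 116 of the 314, and 241 further bins met the RNA Pol II part with at least 20 H3K27me3 reads and an H3K27me3 fold of 2 to 3. The 3 shared bins with the lowest H3K27me3 folds, starting at 122748001 on chromosome 8, 61626001 on chromosome 10 and 102840001 on chromosome 15, had 3.02 each, with 85, 85 and 90 H3K27me3 reads. The 3 bins just outside, starting at 127174001 on chromosome 2, 142464001 on chromosome 7 and 153742001 on chromosome 4, had folds of 2.99, 2.98 and 2.97 with 138, 67 and 57 reads. The minimum of 10 RNA Pol II reads was also close for many, with 10 to 14 reads in the best 500-bp bin of 86 shared bins. The RNA Pol II fold threshold was less crowded than that of H3K27me3. An RNA Pol II fold under 4 was held by 18 shared bins. The lowest, 3.21, was shared by bins starting at 45050001 on chromosome 7 and at 8326001 and 50276001 on chromosome 12, with 17, 11 and 11 reads. Just outside were folds of 2.94, 2.94 and 2.93 in bins starting at 24540001 on chromosome 1, 126936001 on chromosome 10 and 45030001 on chromosome 7, with 10, 10 and 17 reads. Lower 95% limits of the ratio to WCE were at least 3 for H3K27me3 in 156 shared bins, for RNA Pol II in 213 and for both in 108.

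Positions below are on build mm8, counted from 1, and reads in the 4 successive 500-bp segments of a bin are given from low to high coordinate. The 5 bins named first had the highest smaller value of the lower limits of their H3K27me3 and RNA Pol II ratios. On chromosome 1 from 135250001 to 135252000, 171 H3K27me3 reads stood against 12 WCE reads, a fold of 16.2, the highest H3K27me3 fold of all shared bins. Its H3K27me3 reads were 47, 66, 45 and 13 over the segments, and its RNA Pol II reads were 0, 0, 0 and 16. All of its RNA Pol II thus lay at one end, in the segment with the fewest H3K27me3 reads. WCE had 0 reads in that segment, so the RNA Pol II ratio there has only a lower limit, 14.4, and the H3K27me3 fold there was 17.2. Against WCE replicate 1 alone this bin had an H3K27me3 fold of 7.58 and an RNA Pol II fold of 2.28, under the threshold.

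On chromosome 8 from 90848001 to 90850000 the H3K27me3 reads were 73, 38, 10 and 29 and the RNA Pol II reads 13, 15, 43 and 6. Here the segment with the most RNA Pol II held the fewest H3K27me3 reads, although with 0 WCE reads its H3K27me3 fold was 13.5, and E2F4, with 5, 45, 2 and 1 reads, peaked in the neighbouring segment. On the same chromosome from 73302001 to 73304000, 303 H3K27me3 reads gave a fold of 9.33. Its H3K27me3 reads were 38, 59, 111 and 95 and its RNA Pol II reads 1, 5, 9 and 50, so RNA Pol II lay within the denser side of H3K27me3. On chromosome 11 from 97444001 to 97446000 the H3K27me3 reads were 50, 37, 44 and 32, the RNA Pol II reads 1, 0, 1 and 22, and E2F4 had 14 reads in the same segment as RNA Pol II. On chromosome 15 from 89326001 to 89328000 the H3K27me3 reads were 64, 102, 29 and 7 and the RNA Pol II reads 3, 4, 5 and 22. The segment with the most RNA Pol II again had the fewest H3K27me3 reads, and here its H3K27me3 fold was 2.46.

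After the bin on chromosome 1, the highest H3K27me3 folds were 14.3 on chromosome 11 from 116098001 to 116100000 and 13.5 on chromosome 12 from 104872001 to 104874000. The bin on chromosome 11 held 314 H3K27me3 reads, 38 RNA Pol II reads and 1 E2F4 read, and that on chromosome 12 held 186, 50 and 17. Both had modest RNA Pol II, at 15 and 18 reads in the best 500-bp bin. Against WCE replicate 1 alone their RNA Pol II folds were 2.15 and 2.55, under the threshold, and their H3K27me3 folds 13.9 and 4.12.

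The most RNA Pol II reads in 500 bp, 207, lay on chromosome 18 in the bin from 11052001 to 11054000, whose RNA Pol II reads were 112, 207, 115 and 18 over the segments. Its H3K27me3 reads were 38, 49, 69 and 47, a fold of 5.22 over 2 kb. On chromosome 14 from 45308001 to 45310000 the RNA Pol II reads were 19, 30, 204 and 53 and the H3K27me3 reads 27, 30, 51 and 46. The third bin by RNA Pol II, on chromosome 3 from 129190001 to 129192000, had RNA Pol II reads of 4, 10, 51 and 173 and H3K27me3 reads of 13, 18, 21 and 37. On chromosome 3 both signals increased along the bin, where WCE replicate 2 had 2, 2, 1 and 5 reads. All 3 bins held an E2F4 bin, which means a 500-bp bin with at least 10 E2F4 reads at a fold of at least 3.

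The split of the signals over the 2 kb is described next, from counts that the rule used except those of E2F4. In each shared bin the 500-bp segment with the most RNA Pol II reads was set against the other 3. H3K27me3 reads were slightly denser in that segment, 1.11 times per bp (1.08 to 1.13). WCE replicate 2 was raised more, 1.45 times (1.38 to 1.51), while WCE replicate 1, with 7 reads there and 73 in the other segments, was at 0.288 times (0.112 to 0.623). E2F4, which played no part in the choice, was 3.48 times as dense there (3.26 to 3.72). Relative to the summed WCE, H3K27me3 in the RNA Pol II segment was therefore at 0.772 of the other segments (0.734 to 0.812). The direction rests on WCE replicate 2, since against WCE replicate 1 alone, with bins chosen anew, the value was 1.77 (0.755 to 4.80).

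Bins with RNA Pol II only showed the same measure at 0.695 (0.689 to 0.701), with raw H3K27me3 at 1.40 times (1.39 to 1.41) and WCE replicate 2 at 2.03 times (2.02 to 2.04). The H3K27me3 and WCE counts in this measure also separate the shared bins from those with RNA Pol II only, so both values are descriptions. Thinning to the E2F4 depth gave 0.664 (0.607 to 0.727) for the shared bins, and the bins with RNA Pol II only were not recomputed. Bin by bin, the RNA Pol II segment had a lower H3K27me3 fold than the rest in 204 of 314, with a median fold of 3.82 (quartiles 2.46 and 5.93) against 4.82 (3.85 and 6.57). By fold it ranked lowest of the 4 segments in 112 bins and highest in 57; by raw reads it ranked lowest in 58 and highest in 117.

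**Figure D2:**
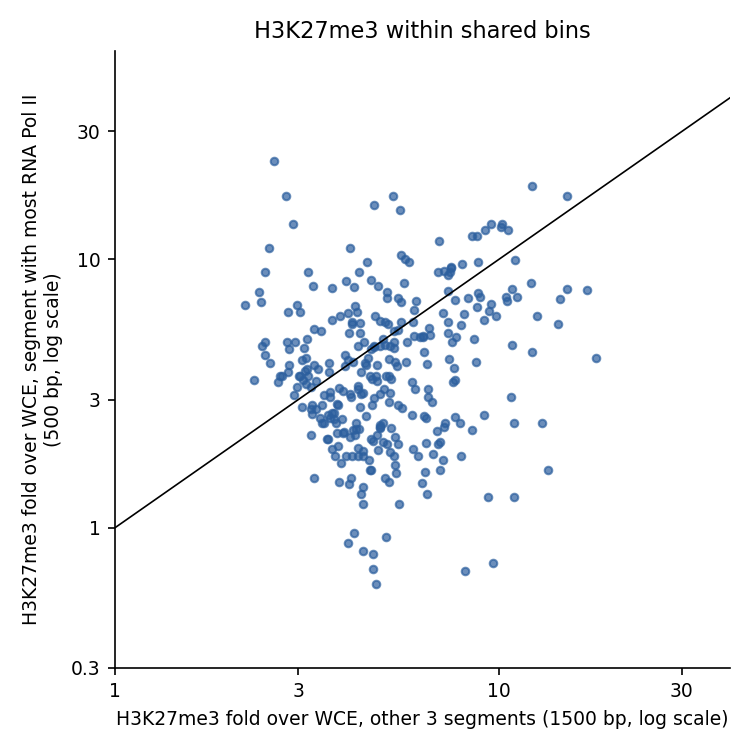
Each point is 1 shared bin, with the H3K27me3 fold over WCE in the 500-bp segment that holds the most RNA Pol II reads on the y axis and that in the other 3 segments on the x axis, both on log scales; the line marks equal folds. Below the line lie 204 of the 314 bins, and 9 have a fold under 1 in the RNA Pol II segment.

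The folds that chose the bins were also counted per 500 bp, as a description. In 229 of the 314, a 500-bp bin that met the RNA Pol II threshold also had at least 5 H3K27me3 reads at a fold of at least 3; over the whole genome 450 bins of 500 bp did so, 0.00914% of them, a background that nothing is read from here. No shared bin had 0 H3K27me3 reads in its RNA Pol II segment. RNA Pol II itself was narrow: 206 shared bins had 1 segment over the RNA Pol II threshold, 68 had 2, 25 had 3 and 15 had all 4.

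Around RNA Pol II summits, the densest 200 bp of the best 500-bp bin, H3K27me3 was highest within 1000 bp and declined over several kb. The rule asks for H3K27me3 in the 2 kb that hold the summit, so its level there is set by the choice. Densities are reads per kb and bin per 10000000 distinct autosomal reads. In shared bins H3K27me3 density did not peak at the summit, and was 68.5 and 69.4 at 250 to 500 bp on either side. Within 250 bp of the summits it was 65.9, and at 500 to 1500 bp it was 57.2, against 19.8 at 5 to 10 kb. These are 3.32 times (3.25 to 3.39) and 2.88 times (2.84 to 2.92) the outer level, whereas WCE replicate 2 stood at 2.10 times and 1.47 times. The shallow WCE replicate 1 went the other way, at 0.139 times (0.0378 to 0.358) within 250 bp, from 4 reads. Within 250 bp of the summits of bins with RNA Pol II only, WCE replicate 1 was at 0.443 times (0.414 to 0.474) and WCE replicate 2 at 3.90 times. At summits of bins with RNA Pol II only, H3K27me3 density was 12.5 within 250 bp and 8.66 at 500 to 1500 bp. It was 6.12 at 5 to 10 kb, and below WCE replicate 2 throughout.

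RNA Pol II density at the summits was 223 in shared bins, against 520 in bins with RNA Pol II only, a level that the choice of summits raises in both. The extent of RNA Pol II was shorter in shared bins by the median, at 500 bp against 1000 bp. The uninterrupted stretch of 500-bp bins over the RNA Pol II threshold was 500 bp long in 160 of 314, 51.0% (45.3 to 56.6), against 23.5% (22.9 to 24.2) of bins with RNA Pol II only. Stretches of 2500 bp or more ran through 31 shared bins, 9.87% (6.81 to 13.7), against 12.3% (11.8 to 12.8) of bins with RNA Pol II only. These intervals overlap. The longest stretch was 5500 bp among the 314 shared bins and 26500 bp among the 18171 bins with RNA Pol II only, sets of unlike size. The shorter stretches go with fewer RNA Pol II reads per bin, 49.5 on average in shared bins and 105.5 in bins with RNA Pol II only, and the part of depth in this difference was not tested.

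**Figure D3:**
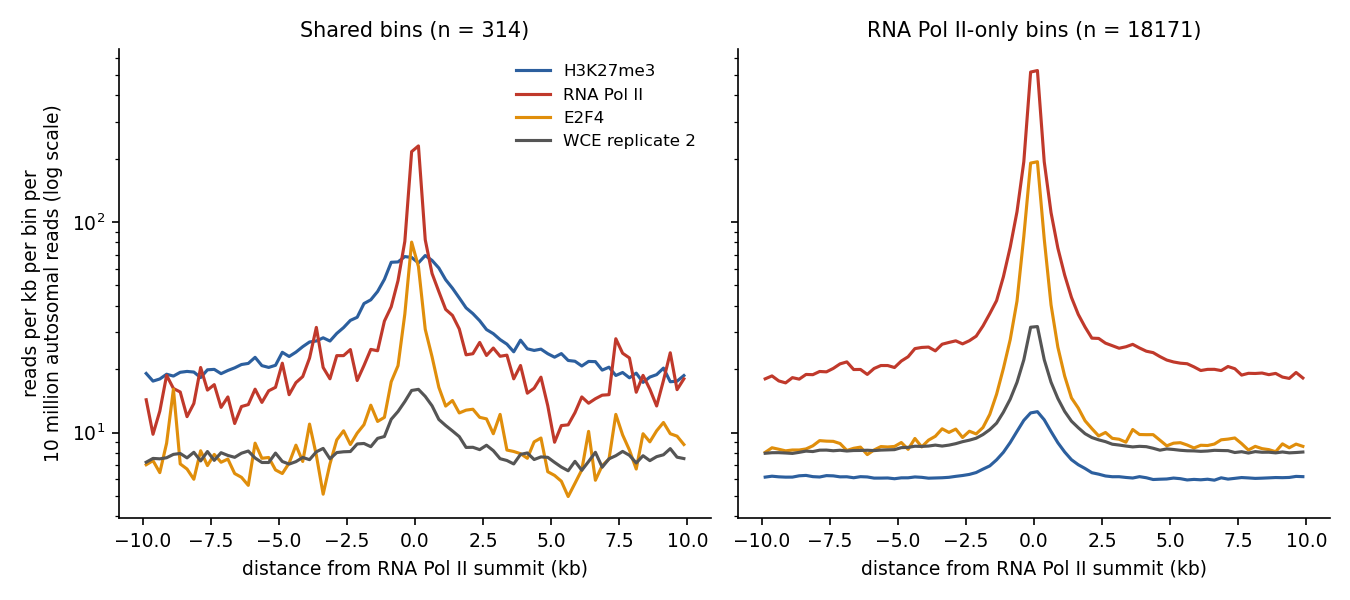
Read density (log scale) of H3K27me3, RNA Pol II, E2F4 and WCE replicate 2 in steps of 250 bp around RNA Pol II summits, for the 314 shared bins on the left and the 18171 bins with RNA Pol II only on the right; x is the distance from the summit in kb. H3K27me3 lies above WCE replicate 2 on the left at all distances, at 65.9 against 15.96 within 250 bp, and below it on the right, at 12.5 against 31.8.

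H3K27me3 extended beyond most shared bins. Of the 314, 131 had a bin meeting the H3K27me3 part on both sides, 41.7% (36.2 to 47.4), 119 on 1 side and 64 on neither, 20.4% (16.1 to 25.3). Bins with H3K27me3 only had such neighbours on both sides in 32.8% (32.2 to 33.4) and on neither in 30.3% (29.7 to 30.8). An uninterrupted run of H3K27me3 bins of 20 kb or more held 10.5% of the shared bins (7.35 to 14.4), against 14.5% (14.1 to 14.97) of bins with H3K27me3 only, and these intervals overlap. Runs of 10 to 18 kb held 28.0% of the shared bins (23.1 to 33.3), against 18.4% (17.9 to 18.9). At 8 kb from a shared bin, 25.8% of bins on the low-coordinate side and 26.8% on the high-coordinate side still met the H3K27me3 part, against 36.1% on either side of bins with H3K27me3 only.

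Shared bins flanked by H3K27me3 on both sides had a median H3K27me3 fold of 5.77, against 3.71 in those without such neighbours, while their median RNA Pol II reads in the best 500-bp bin were close, at 22 and 22.5. In the 119 bins with H3K27me3 on 1 side, 41.7% of the RNA Pol II reads (40.3 to 43.0) and 39.9% of the H3K27me3 reads (39.1 to 40.8) lay in the 1000 bp away from that side. WCE replicate 2 had 48.1% there (46.3 to 49.8). More of the RNA Pol II reads thus lay on the side of the H3K27me3 neighbour, as did more of the H3K27me3 reads, by which the neighbour was chosen.

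E2F4 reads were not used to choose the bins. E2F4 density in the shared bins was 29.6, against 6.42 in the flanks 5 to 20 kb away, 4.61 times higher (4.44 to 4.79). WCE replicate 2 was 1.74 times as dense in the shared bins as in the flanks (1.70 to 1.78), and WCE replicate 1 was at 0.725 (0.571 to 0.910), so the E2F4 rise was larger than that of either extract. By the alignment setting, reads of E2F4, RNA Pol II and WCE replicate 1 were 26 bp long and those of WCE replicate 2 were 36 bp. The part of read length in these comparisons was not tested. In bins with RNA Pol II only the E2F4 rise over flanks was 15.7 times (15.6 to 15.8), and in bins with H3K27me3 only E2F4 stood at 0.841 of the flanks (0.832 to 0.849). The flanks were unlike: those of shared bins had an RNA Pol II density of 8.77 and an E2F4 density of 6.42, against 3.21 and 4.24 for bins with RNA Pol II only. The median E2F4 fold over WCE per 2 kb was 2.11 in shared bins, against 2.04 in bins with RNA Pol II only. The value for the shared bins moved by over 1.5 times when bins were chosen without WCE replicate 2, to 9.96, or against a uniform background, to 10.6.

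Over the genome 0.212% of bins of 500 bp were E2F4 bins. An E2F4 bin lay in 70 of the 314 shared bins, 22.3% (17.8 to 27.3), against 0.675% of all 2-kb bins. The share was 41.1% (40.4 to 41.8) in bins with RNA Pol II only and 0.255% (0.199 to 0.323) in bins with H3K27me3 only. Because neighbouring bins share a locus, it was also counted over 227 groups of shared bins no more than 50 kb apart, of which 63 held an E2F4 bin, 27.8% (22.0 to 34.1). Against a uniform background the share was 47.9%. That background also replaced WCE in the E2F4 fold, and the shares of the other sets of bins were not recomputed with it, so 47.9% cannot be set beside them.

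The share with an E2F4 bin rose with RNA Pol II reads, of which shared bins had fewer, and the part of RNA Pol II in the lower share was not tested. Where the best 500-bp bin had 10 to 14 RNA Pol II reads, 7 of 86 shared bins held an E2F4 bin, 8.14% (3.34 to 16.1), against 4.39% (3.59 to 5.30) of bins with RNA Pol II only. With 50 reads or more it was 25 of 49, 51.0% (36.3 to 65.6), against 63.1% (62.1 to 64.1). Between these classes the shares were 15.5% against 11.2% at 15 to 19 reads and 22.0% against 17.1% at 20 to 29. At 30 to 49 reads they were 25.8% against 32.8%. The shared bins were thus higher in the classes up to 29 reads and lower in those from 30 on. In each of the 5 classes the interval of the shared bins overlapped that of bins with RNA Pol II only, and no test of a difference was made. Mean WCE counts differed in the highest class, at 31.3 reads in shared bins and 49.6 in bins with RNA Pol II only, and WCE enters the E2F4 fold.

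**Figure D4:**
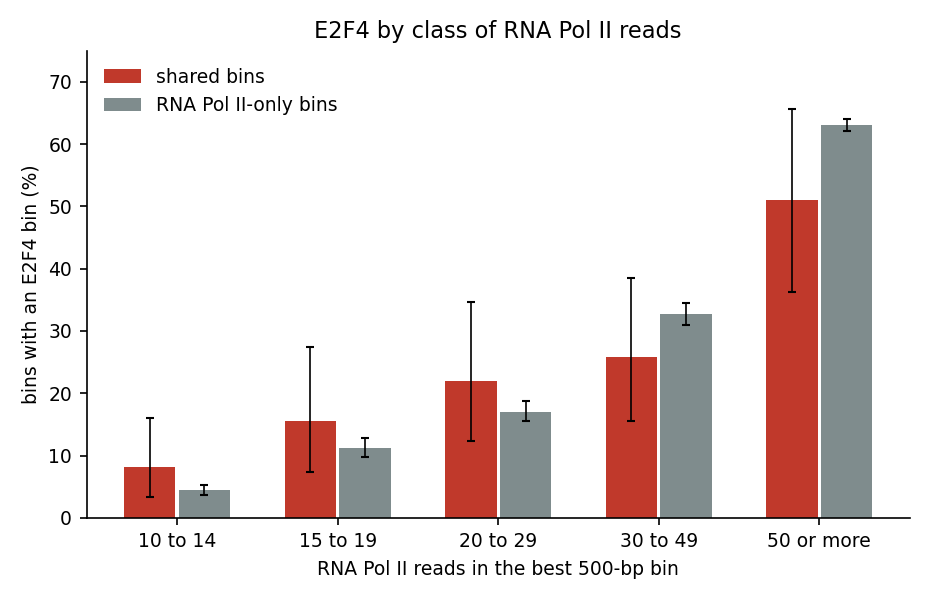
Share of bins (percent, y axis) that hold a 500-bp bin with at least 10 E2F4 reads at a fold of at least 3, by class of RNA Pol II reads in the best 500-bp bin (x axis), for shared bins and bins with RNA Pol II only; error bars are exact 95% intervals. The share goes from 8.14% to 51.0% in shared bins and from 4.39% to 63.1% in bins with RNA Pol II only, with overlapping intervals in every class.

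E2F4 and RNA Pol II usually lay together. In 57 of the 70 shared bins with an E2F4 bin, the E2F4 bin with the most reads was the RNA Pol II bin with the most reads. Shared bins with an E2F4 bin had a median of 37 RNA Pol II reads in the best 500-bp bin (quartiles 20 and 65.5), against 19 (13 and 32) in those without, and a median H3K27me3 fold of 4.23 against 4.55. The 244 shared bins without an E2F4 bin still had 2.78 times the E2F4 density of their flanks (2.64 to 2.93), where WCE replicate 2 had 1.67 times. The rise was not present in every bin. Over 2 kb the E2F4 fold was under 1 in 57 shared bins and at least 3 in 94, and E2F4 was at 0 reads in 4.

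The most E2F4 reads in 500 bp, 135, were found on chromosome 14 from 18972001 to 18974000. Its E2F4 reads were 135, 16, 0 and 0 and its RNA Pol II reads 74, 17, 1 and 0. Its H3K27me3 reads were 35, 17, 12 and 12, so all the antibodies had their most reads in the same segment. WCE replicate 2, with 11, 10, 1 and 6 reads, also had its most reads there. The H3K27me3 fold was 3.68 in that segment and 2.71 in the others. Over 2 kb the H3K27me3 fold of this bin was 3.15, close to the threshold, and 1.70 against WCE replicate 1 alone. On chromosome 7 from 45050001 to 45052000 the E2F4 reads were 98, 3, 3 and 0 and the RNA Pol II reads 5, 17, 0 and 0, in adjacent segments. This bin was near both thresholds, with folds of 3.15 for H3K27me3 and 3.21 for RNA Pol II, and an RNA Pol II fold of 2.42 against WCE replicate 1 alone. On chromosome 5 from 114828001 to 114830000 the E2F4 reads were 74, 3, 1 and 0 and the RNA Pol II reads 27, 4, 2 and 0, while the H3K27me3 reads of 16, 18, 51 and 83 were lowest in the segment with both.

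Shared bins were scattered for the most part. They formed 257 runs of adjacent bins, 220 of them a single bin, and with gaps of up to 50 kb allowed they formed 227 groups, of which 189 were single bins. The exception was a stretch of chromosome 11 from 96098001 to 96174000, 76 kb long, where 24 of 38 bins were shared, 31 met the H3K27me3 part and 28 the RNA Pol II part. Its shared bins held 48 to 159 H3K27me3 reads (median 89.5), 10 to 75 RNA Pol II reads in the best 500-bp bin (median 17) and 0 to 17 E2F4 reads (median 6). Summed, H3K27me3 was at 4.66 times WCE, RNA Pol II at 8.50 times and E2F4 at 1.45 times.

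None of these 24 bins held an E2F4 bin, against 70 of the other 290 shared bins, 24.1% (19.3 to 29.5). The 24 bins lie in a single stretch, so they do not count as separate observations. This stretch also held the longest run, of 8 adjacent shared bins, from 96154001 to 96170000. Along that run the H3K27me3 reads per bin were 77, 95, 78, 129, 102, 70, 68 and 113, and the RNA Pol II reads were 28, 50, 50, 35, 28, 43, 24 and 140. Both signals were present in all 8 bins, and RNA Pol II was highest in the last. Elsewhere in the stretch the bin from 96134001 to 96136000 had 256 RNA Pol II reads and 100 H3K27me3 reads. The bin that followed the run of 8, from 96170001 to 96172000, had 65 E2F4 reads and 63 RNA Pol II reads and did hold an E2F4 bin. Its 62 H3K27me3 reads gave a fold of 2.34, so it was not a shared bin although it lay within the stretch. From 96174001 on, RNA Pol II dropped to 0 to 4 reads per bin up to 96210000, while H3K27me3 stayed at 20 to 114 reads per bin up to 96192000. WCE replicate 1 had 10 reads in the run of 8 bins, against 80 in all 314 shared bins.

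**Figure D5:**
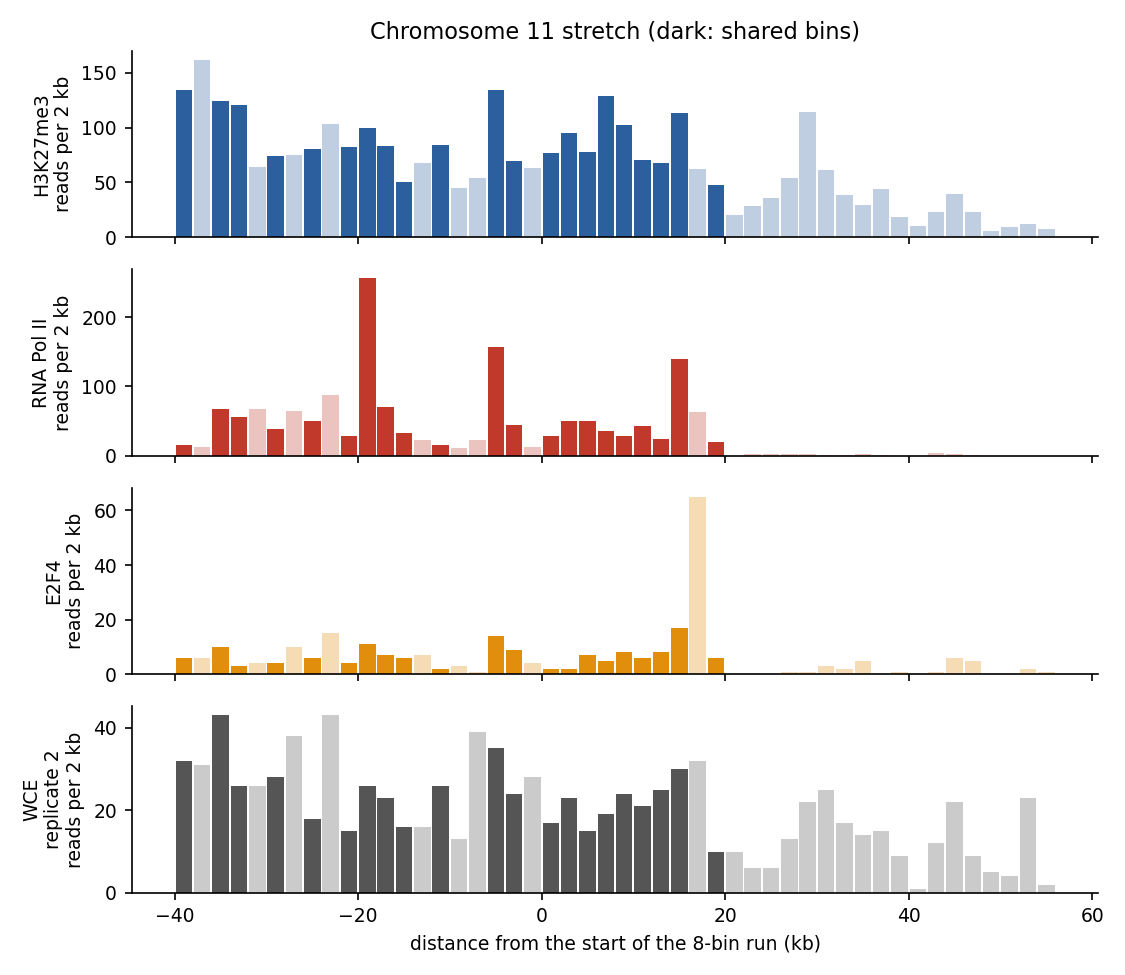
Reads per 2-kb bin of H3K27me3, RNA Pol II, E2F4 and WCE replicate 2 along chromosome 11, by distance in kb from the start of the run of 8 shared bins; dark bars are shared bins and pale bars other bins. H3K27me3 and RNA Pol II are both present up to 20 kb, beyond which RNA Pol II has at most 4 reads per bin, and the tallest E2F4 bar, 65 reads, is a bin with an H3K27me3 fold of 2.34.

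A second group whose shared bins held no E2F4 bin lay on chromosome 15 from 102836001 to 102932000, with 7 shared bins over 96 kb. There H3K27me3 was at 4.06 times WCE, RNA Pol II at 6.83 times and E2F4 at 1.84 times over the shared bins. Other groups of at least 4 shared bins did hold E2F4 bins. On chromosome 3 from 129190001 to 129208000, 3 of 6 shared bins did, with E2F4 at 4.65 times WCE and RNA Pol II at 16.5 times. On chromosome 12 from 104866001 to 104880000 it was 1 of 6, with H3K27me3 at 8.05 times WCE, the highest of the 7 groups, and E2F4 at 5.27 times. Groups on chromosome 8 from 123968001 to 124004000, on chromosome 11 from 118838001 to 118908000 and on chromosome 13 from 78660001 to 78668000 each had 2 shared bins with an E2F4 bin, of 5, 5 and 4.

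After the run on chromosome 11, the longest runs were 5 bins on chromosome 12 from 104870001 to 104880000 and 4 bins on chromosome 3 from 129190001 to 129198000; 2 further runs had 4 bins. The run on chromosome 12 held 567 H3K27me3 reads and 333 RNA Pol II reads, against 80 reads of WCE replicate 2. That on chromosome 3 held 351 H3K27me3 reads and 365 RNA Pol II reads, against 72 reads of WCE replicate 2.

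Chromosome 11 held 53 of the 314 shared bins, 16.9%, with 4.95% of all bins, and 24 of the 53 came from the single stretch described above. The share of H3K27me3 bins that were shared was 2.24% there (1.68 to 2.92), against 1.15% over all autosomes (1.03 to 1.28). It was lowest on chromosome 19, at 0.460% (0.149 to 1.07), and on chromosome 2, at 0.555% (0.318 to 0.900). The other chromosomes had 5 to 20 shared bins each, and these intervals treat bins of one locus as independent.

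The share of RNA Pol II bins that also met the H3K27me3 part went down with RNA Pol II reads; the rule used both measures, so this is a description. Of bins with 10 to 14 RNA Pol II reads in the best 500-bp bin, 3.57% (2.87 to 4.39) were shared, and of bins with 50 reads or more 0.520% (0.385 to 0.687). The median WCE count was 25 reads in shared bins of the lowest class and 31 in those of the highest, against 26 and 48 in the bins with RNA Pol II only. Among H3K27me3 bins the share was 0.0323% with 20 to 39 H3K27me3 reads, 5.26% with 120 to 159 and 4.53% with 160 or more. The WCE medians of the lowest and highest of these classes were 8 and 34 reads in shared bins. In bins with H3K27me3 only they were 8 and 26, and the part of WCE density in both trends was not tested. By H3K27me3 fold the share changed much less, from 0.929% at 3 to under 4 to 1.70% at 8 to under 12. At a fold of 12 or more it was 1.04%.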

How the data were processed

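Per the file headers, reads had been aligned with bowtie (-e 70, -k 2, -m 2, -n 2; -l 36 for H3K27me3 and WCE replicate 2 and -l 26 for the rest) to mouse build mm8. Its version: not given in the sources used here. The authors deposited signed read positions. Minus-strand positions were taken as leftmost bases, because positions shared between 36-bp and 26-bp libraries peaked at an offset of 10 bp on that strand and 0 bp on the other. Reads with 1 placement on chromosomes 1 to 19 were counted 1 time per strand and position after a shift of the 5′ end by 60 bp downstream. This left 1971874 E2F4, 9483163 H3K27me3, 3111606 RNA Pol II, 417799 WCE replicate 1 and 11226593 WCE replicate 2 reads; 3 reads are 0.00015% of the E2F4 library. Scaling was by these totals. Intervals are Clopper-Pearson or conditional exact at 95% (scipy 1.17.1). WCE counts are both extracts summed. Reads carry no molecular identifiers, so they are not independent molecules.

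Bins are named by position by rank rules on lower limits, folds, reads and run length. The genes at these positions are not analysed here, since the gene table at hand is of GRCm38.p6. The rule for the bins, the comparisons and the 50 kb grouping were chosen with earlier results of these data known. The choice of bins and the summed H3K27me3 ratio were tested on simulated data of chromosome 19, with planted signals stronger than in most shared bins. The other measures were not tested in that way.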

Additional observations from a re-analysis of the deposited data

Results flagged for a closer look

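Signal appeared in data outside the comparisons. On chromosome X, 4 of 82760 bins of 2 kb met the same rule, a smaller share than the 314 of 1231222 on the autosomes. The H3K27me3 part was met by 175 bins of X and the RNA Pol II part by 539. Among bins that met the H3K27me3 part, 4 of 175 on X were a larger share than 314 of 27321 on the autosomes. Of the 1365 bins on Y, 0 met either part. The 4 bins on X started at 44530001, 81300001, 131462001 and 146508001 and held 34, 22, 20 and 28 H3K27me3 reads against 13, 7, 6 and 6 WCE reads.

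Reads listed at 2 places, which no comparison used, were also above WCE in the 314 shared bins. The ratio to WCE was 7.95 (6.63 to 9.57) for RNA Pol II, 4.13 (3.43 to 4.99) for H3K27me3 and 2.05 (1.58 to 2.66) for E2F4, from 449, 399 and 94 lines against 162 of WCE. The H3K27me3 lines fell in 54 of the bins and the RNA Pol II lines in 182. Each such read is listed at 2 places, and which of them it came from is not known.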

How the results depend on the processing

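Under 11 alternatives, 5 results were recomputed: the number of shared bins (314), E2F4 density over flanks (4.61), the share with an E2F4 bin (22.3%), H3K27me3 in the RNA Pol II segment relative to WCE (0.772) and WCE replicate 2 density over flanks (1.74). Leaving out either WCE library gave 200 to 299 bins, E2F4 over flanks of 4.52 to 9.96, E2F4 shares of 20.7% to 29.5%, H3K27me3 in the RNA Pol II segment of 0.762 to 1.77 and WCE replicate 2 over flanks of 1.72 to 4.69; the values 200, 9.96, 29.5%, 1.77 and 4.69 are those against WCE replicate 1 alone, which reversed the segment result, at 1.77 (0.755 to 4.80). A fold of 2 gave 577 bins, E2F4 at 4.35 and WCE replicate 2 at 1.86. A fold of 4 gave 188 bins, the segment value 0.830 and WCE replicate 2 at 1.65. Scaling on background bins gave 715 bins, E2F4 at 4.34 and WCE replicate 2 at 1.89. A uniform background gave 4012 bins, E2F4 at 10.6, an E2F4 share of 47.9%, the segment value 0.720 and WCE replicate 2 at 3.17. Thinning gave 150 bins, E2F4 at 5.25, a share of 28.7%, the segment value 0.664 and WCE replicate 2 at 1.99. E2F4 over flanks was 4.26 with repeats kept and 4.42 with ends moved 90 bp, and a grid moved by 1000 bp gave WCE replicate 2 at 1.81. The background, scaling and fold settings also changed which 500-bp bins counted as E2F4 bins. The cause of these shifts was not tested beyond the fewer or more bins that each setting picks. The other 28 values stayed within the main interval or within 1.5 times the main count. Among folds of the 13 named bins recomputed on the same grid, 213 stayed within the main interval and 47 moved outside it. The 213 include the folds under thresholds of 2 and 4, which equal the main values because a threshold changes only which bins are picked. Of these 13 bins, 8 still met the rule without WCE replicate 2, 10 after thinning and 11 at a fold of 4. Of the 314 bins, 115 were kept without WCE replicate 2, 138 after thinning, 188 at a fold of 4, 257 overlapped a bin of the moved grid, 297 were kept with ends not moved, 299 without WCE replicate 1, 300 with ends moved 90 bp, 301 with repeats kept and 312 against a uniform background. No paired analysis was possible because each antibody has 1 library. The depth of WCE replicate 1, 80 reads in all shared bins, limits what it can show alone.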
